A study of Mus musculus with 7 samples.

Results

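The genes described here encode the machinery that writes N6-methyladenosine (m6A) on RNA, apart from the subunit Wtap: Mettl3, Mettl14, Virma, Zc3h13, Rbm15, Rbm15b, Cbll1 and Mettl16. Members were the probe sets whose platform symbol, or an older synonym of it, names 1 of these 8 genes. That gave 149 probe sets out of 311384 with a single gene symbol, and 144 of the 149 were bright enough to be kept. The 5 that were too dim to keep were 3 of Mettl14, 1 of Mettl3 and 1 of Mettl16. All 8 genes were among the 16353 genes tested. Mettl14, Virma and Mettl16 stand in the platform annotation under the older names G430022H21Rik, 1110037F02Rik and Mett10d.

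METTL3 is the methyltransferase subunit that transfers the methyl group to adenosine in messenger RNA, and METTL14 is its partner, which helps to bind the RNA and holds the enzyme in its active shape. The regulatory subunits include VIRMA, which acts as a scaffold, ZC3H13, which helps to keep the complex in the nucleus, the RNA-binding proteins RBM15 and RBM15B, which guide it to its targets, and CBLL1, also known as HAKAI. METTL16 is a separate m6A enzyme that acts on the U6 spliceosomal RNA and on the RNA of the S-adenosylmethionine synthetase gene Mat2a. In mouse embryonic stem cells, m6A is known for shortening the life of transcripts that maintain the pluripotent state.

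RNA came from J-1 cells, a line of mouse embryonic stem cells, that had been infected with lentiviruses carrying a short hairpin RNA. Hairpin 1 against Mettl3 was used in 2 samples, hairpin 2 against Mettl3 in 2 samples, and a hairpin against luciferase, which is not a mouse gene, in 3 control samples. The labels give no time after infection and do not tell whether replicates were grown or infected separately. Each p-value therefore rests on the spread among these 7 samples, part of which may be technical. Each sample was read on 1 exon array, which measures single exons with separate probe sets, and all values are on the log2 scale. A gene value is the median of the kept probe sets of that gene on an array. Differences are hairpin minus luciferase, so that 1 stands for a 2-fold change, and a gene was called at a limma adjusted p below 0.05.

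Array medians over all probe sets lay between 6.03 and 6.07, and precision is limited by the small number of arrays. Over gene values, the second principal component (21.4%) had hairpin 1 replicate 2 (-17.8) and luciferase replicate 3 (-10.4) at its low end. At its high end were luciferase replicate 2 (11.5) and hairpin 2 replicate 2 (10.1). Values without the 2 arrays of the low end are given where they differ. Those 2 are called the arrays that stood apart, although luciferase replicate 2 lay as far out as luciferase replicate 3. Stem cell markers were bright in every group: averaged over 10 markers, the arrays lay at 11.93 to 12.06 with hairpin 1, 12.04 to 12.09 with hairpin 2 and 12.02 to 12.14 with luciferase. None of these 10 markers passed the limma test, with 1 at an unadjusted p below 0.05. The largest differences were Dppa5a (-0.27, limma adjusted p = 0.0892) and Zfp42 (0.14, adjusted p = 0.333). As background for the marker lists, 7.9% of all tested genes were called for both hairpins, and 24.2% were at an unadjusted limma p below 0.05. Dppa5a passed in 5 of 18 alternatives (adjusted p of 0.00584 at the lowest, with the mean of the probe sets). Of 14 fibroblast markers, which feeder cells would carry, the contractile genes Acta2 (1.07, limma adjusted p = 0.000482) and Tagln (0.78, adjusted p = 0.000865) rose and none were called lower. At an unadjusted p below 0.05 stood 5 of the 14, 3 of them higher and 2 lower. The median of the 14 was -0.12, and 10 were below 0. Tagln averaged 8.20 with hairpin 1 and 7.37 with hairpin 2, against 7.01 with luciferase. It was called with hairpin 1 (1.19) and between the hairpins (0.83, adjusted p = 0.0438) but not with hairpin 2 (0.36, adjusted p = 0.0851), and its call for both hairpins was lost without the filter on dim probe sets (adjusted p = 0.0721) and with only the compared arrays in the fit (adjusted p = 0.0526). The mean of these markers was 7.99 to 8.06 with hairpin 1, 7.84 to 7.87 with hairpin 2 and 7.88 to 7.92 with luciferase, and the collagen genes Col1a1 and Col3a1 were brighter than only 37.0% and 35.4% of tested genes. None of 12 trophectoderm and endoderm markers passed (2 at an unadjusted p below 0.05), with Gata6 at -0.24 (adjusted p = 0.174) and Sox17 at -0.19 (adjusted p = 0.183). Both passed with the mean of the probe sets (-0.26, adjusted p = 0.0423, and -0.22, adjusted p = 0.0322). The part of other cell types in the results was not tested.

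Among the 8 writer genes, Mettl3, the target of the hairpins, was the 1 gene called. Its gene value was 8.97 and 8.67 with hairpin 1 and 8.71 and 8.66 with hairpin 2, against 10.38, 10.46 and 10.14 with luciferase. All 4 hairpin arrays lay far below all 3 luciferase arrays. The means were 8.82 ± 0.21 with hairpin 1 (SD, n = 2), 8.69 ± 0.03 with hairpin 2 (SD, n = 2) and 10.33 ± 0.16 with luciferase (SD, n = 3). For the mean of both hairpins the fall was -1.57 ± 0.105 on the log2 scale (SE, 95% interval -1.80 to -1.34, limma adjusted p = 0.000116), or 2.97-fold. In bulk RNA, fewer cells that carry a transcript and less of it per cell cannot be told apart. The 1 call out of 8 genes stands beside a background of 7.9% of all genes called in this comparison, and 2.37% called lower. That split depended on scaling: 904 genes were called higher and 388 lower, against 696 higher and 703 lower (4.3% of all genes) after centring every array on its own median. For hairpin 1 alone (background 5.89% called) and hairpin 2 alone (background 3.79%), Mettl3 was again the 1 writer gene called. The hairpins were not shown to differ for any of the 8 genes: 0 of 8 were called between them (background 0.104%), with none at an unadjusted p below 0.05 and limma adjusted p-values of 0.617 to 0.944.

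**Figure D1:**
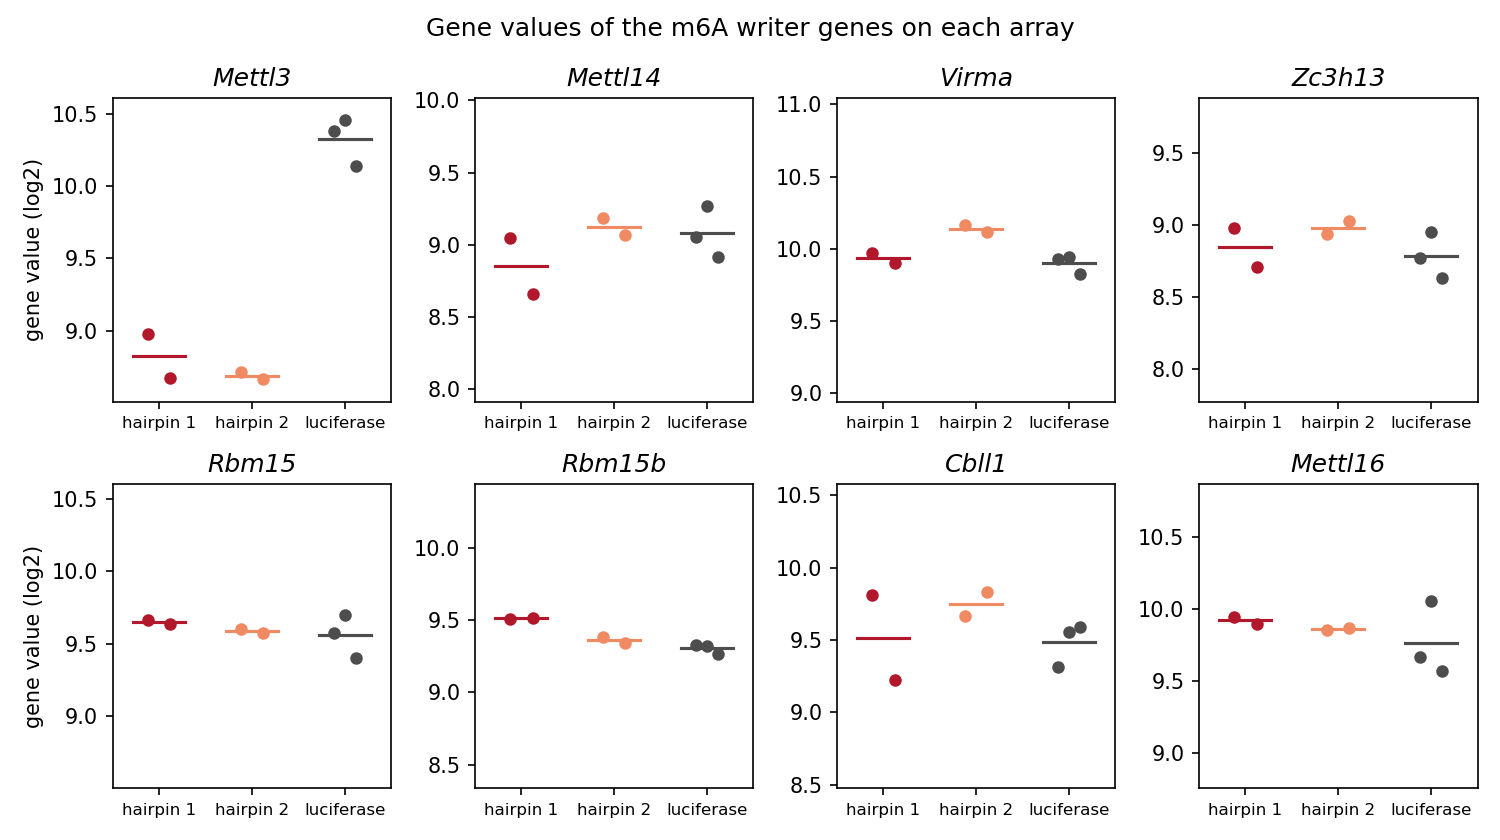
Gene values (log2) of the 8 writer genes on each of the 7 arrays, with hairpin 1, hairpin 2 and luciferase along each horizontal axis. Points are arrays, short lines are group means, and every panel covers the same span of log2 units. Mettl3 separates at 8.66 to 8.97 with the hairpins and 10.14 to 10.46 with luciferase, while 6 of the other 7 genes overlap between hairpin and luciferase arrays.

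None of the remaining 7 genes passed the test. Over these 7 genes the median difference for both hairpins was 0.13, against 0.00 over all genes tested, and the median size regardless of sign was 0.129, against 0.120 over all genes. Signs were mostly positive, with 6 of 7 genes above 0, where 50.1% of all tested genes were above 0. None of the 7 had an unadjusted limma p below 0.05 for both hairpins. The lowest adjusted p among them was 0.292 for both hairpins, 0.196 for hairpin 1 and 0.184 for hairpin 2. Taken over the 7 genes, the 95% intervals for both hairpins reached no lower than -0.35 and no higher than 0.45.

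Mettl14, the partner of Mettl3 in the methyltransferase core, was not shown to change. It was at 9.05 and 8.66 with hairpin 1 and 9.18 and 9.07 with hairpin 2, against 9.06, 9.27 and 8.92 with luciferase. Hairpin 1 replicate 2 was the lowest of the 7 arrays and luciferase replicate 2 the highest, and the groups overlapped. The difference for both hairpins was -0.09 ± 0.117 (SE, 95% interval -0.35 to 0.17, limma adjusted p = 0.673). It was -0.23 with hairpin 1 (adjusted p = 0.378) and 0.04 with hairpin 2 (adjusted p = 0.903). Its sign was not stable: without hairpin 1 replicate 2 the difference for both hairpins was 0.0047, and without luciferase replicate 2 it was 0.0031.

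Virma, the scaffold subunit, was at 9.97 and 9.91 with hairpin 1 and 10.16 and 10.12 with hairpin 2, against 9.93, 9.95 and 9.82 with luciferase. Both hairpin 2 arrays were above every luciferase array, and the hairpin 1 arrays lay among or just above them. The difference was 0.04 with hairpin 1 (limma adjusted p = 0.839) and 0.24 with hairpin 2 (95% interval 0.04 to 0.44, unadjusted p = 0.0246, adjusted p = 0.184). For both hairpins together it was 0.14 ± 0.076 (SE, 95% interval -0.03 to 0.31, adjusted p = 0.292). The test between the hairpins gave -0.20 for hairpin 1 minus hairpin 2 (adjusted p = 0.617), so a difference between them was not shown.

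Zc3h13, the nuclear retention subunit, was at 8.98 and 8.71 with hairpin 1 and 8.94 and 9.03 with hairpin 2, against 8.77, 8.95 and 8.63 with luciferase. The groups overlapped, with luciferase replicate 3 the lowest array and hairpin 2 replicate 2 the highest. The difference for both hairpins was 0.13 ± 0.103 (SE, 95% interval -0.10 to 0.36, limma adjusted p = 0.477).

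The adaptor Rbm15 was at 9.66 and 9.64 with hairpin 1 and 9.60 and 9.57 with hairpin 2, against 9.57, 9.70 and 9.40 with luciferase. The hairpin arrays lay inside the range of the luciferase arrays, and the difference was 0.06 ± 0.088 (SE, 95% interval -0.14 to 0.25, limma adjusted p = 0.734). This gene depended on how its probe sets were summarised. With median polish in place of the median it was at 0.31 and passed (adjusted p = 0.0175), in a setting that called 15.1% of all genes. Without luciferase replicate 3, on the other hand, it was at -0.02.

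Its relative Rbm15b was at 9.51 and 9.51 with hairpin 1 and 9.38 and 9.34 with hairpin 2, against 9.33, 9.32 and 9.26 with luciferase. All 4 hairpin arrays were above all 3 luciferase arrays, hairpin 1 by more than hairpin 2. Apart from Mettl3 it was the 1 writer gene whose groups did not overlap, and 21.8% of all tested genes had groups that did not overlap in either direction. The difference was 0.21 with hairpin 1 (limma 95% interval 0.01 to 0.40, adjusted p = 0.196) and 0.06 with hairpin 2 (adjusted p = 0.767). For both hairpins together it was 0.13 ± 0.0725 (SE, 95% interval -0.03 to 0.29, adjusted p = 0.298). Its gene value and its probe sets did not point the same way: the median change of its 8 kept probe sets was -0.04, with 4 above and 4 below 0. With the mean of the probe sets in place of the median, the difference for both hairpins was -0.02.

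Cbll1, which encodes HAKAI, was at 9.81 and 9.22 with hairpin 1 and 9.67 and 9.83 with hairpin 2, against 9.32, 9.56 and 9.59 with luciferase. Both hairpin 2 arrays and hairpin 1 replicate 1 were above every luciferase array, whereas hairpin 1 replicate 2 was the lowest of the 7. The 2 hairpin 1 arrays were further apart than those of any other writer gene, at 9.52 ± 0.42 (SD, n = 2), against 9.49 ± 0.15 with luciferase (SD, n = 3). The difference for both hairpins was 0.15 ± 0.137 (SE, 95% interval -0.16 to 0.45, limma adjusted p = 0.550). Cbll1 passed under 3 other settings: 0.34 with a stricter filter on dim probe sets (adjusted p = 0.0176), 0.24 with the mean of the probe sets (adjusted p = 0.0418) and 0.24 with median polish (adjusted p = 0.0291). Those settings called 15%, 17.4% and 15.1% of all genes. Without hairpin 1 replicate 2 and luciferase replicate 3, Cbll1 was at 0.35 (adjusted p = 0.135).

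Mettl16, the separate enzyme, was at 9.95 and 9.89 with hairpin 1 and 9.86 and 9.87 with hairpin 2, against 9.67, 10.05 and 9.57 with luciferase. The 4 hairpin arrays lay close together, inside the wider range of the luciferase arrays. The difference was 0.13 ± 0.114 (SE, 95% interval -0.13 to 0.38, limma adjusted p = 0.531), and without the 2 arrays that stood apart it was 0.04. Mat2a, the messenger RNA that METTL16 is known to methylate, was at -0.17 (adjusted p = 0.285); this gene was singled out after its value was seen.

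The writer genes shared an order among replicates. Luciferase replicate 3 was the lowest of the 3 luciferase arrays for 7 of the 8 genes, all but Cbll1, and hairpin 1 replicate 2 was below hairpin 1 replicate 1 for 7 of the 8, all but Rbm15b. Over all tested genes these shares were 45.1% and 61.9%. Luciferase replicate 2 was the highest of the 3 luciferase arrays for 6 of the 8 genes, against 37.5% of all tested genes. Hairpin 2 replicate 2 was below hairpin 2 replicate 1 for 5 of the 8, against 38.8%. Luciferase replicate 3 and hairpin 1 replicate 2 lay at the low end of the second principal component. Luciferase replicate 2 and hairpin 2 replicate 2 lay at its high end.

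**Figure D2:**
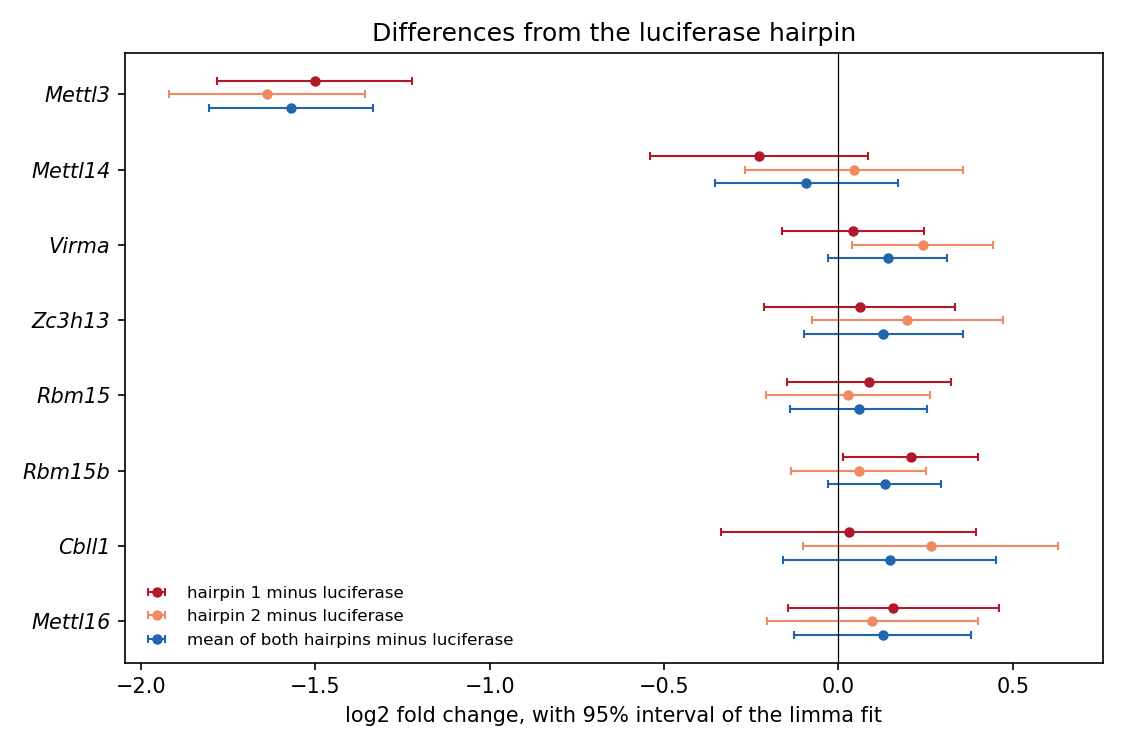
Log2 fold changes against luciferase (horizontal axis) for each writer gene (vertical axis), with 95% intervals of the limma fit, for hairpin 1, hairpin 2 and the mean of both. Mettl3 stands at -1.50, -1.64 and -1.57, and the other 7 genes lie between -0.23 and 0.26. The intervals of Rbm15b with hairpin 1 and of Virma with hairpin 2 leave out 0 before adjustment over all genes.

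Exon-level probe sets show whether the separate probe sets of a gene moved together or apart. For Mettl3, 13 of 17 kept probe sets were called lower, by 1.16 to 1.83 on the log2 scale (median -1.47, limma adjusted p = 0.00421 to 0.00701), where 2.29% of all kept probe sets were called and 0.565% were called lower. Probe set 5217508 fell the most: it was at 8.68 and 8.67 with hairpin 1 and 8.24 and 8.32 with hairpin 2, against 10.42, 10.37 and 10.14 with luciferase. Its change was -1.83 for both hairpins, -1.63 with hairpin 1 and -2.03 with hairpin 2. The bright probe set 4790825 changed the least of the 13, with 10.56 and 10.66 for hairpin 1 and 10.43 and 10.48 for hairpin 2, against 11.74, 11.65 and 11.68 for luciferase (-1.16). In each of the 13 the hairpin arrays lay below the luciferase arrays without overlap, as they did in 5.94% of all kept probe sets. In 12 of the 13 the fall was larger with hairpin 2 than with hairpin 1, but 0 of all 229811 kept probe sets passed the limma test between hairpins (0%), with 15276 at an unadjusted p below 0.05.

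The other 4 kept probe sets of Mettl3 did not pass. Probe set 5465199 was at 6.57 and 6.30 with hairpin 1 and 6.84 and 6.76 with hairpin 2, against 6.87, 6.97 and 7.58 with luciferase (-0.52, limma adjusted p = 0.188). Its hairpin arrays were below its luciferase arrays by a small margin. Probe sets 5142202 (-0.12, adjusted p = 0.636), 4572963 (0.04, adjusted p = 0.932) and 4741415 (0.23, adjusted p = 0.758) overlapped between groups. These 4 averaged 6.39 to 7.76 over the 7 arrays, and the 13 that fell averaged 7.40 to 11.03, averages that include the fall itself. On the luciferase arrays all 4 were dimmer than all 13. Probe set 4322100, the dimmest of the 13, was at 8.45, 8.18 and 8.05 with luciferase. The brightest of the 4, 5142202, was at 7.82, 7.98 and 7.69. With hairpin 1, 4322100 was at 6.74 and 6.71, and with hairpin 2 at 6.88 and 6.75 (-1.46). The part of low signal in the 4 was not tested. Which exons these probe sets cover and where the hairpins match the transcript are not given in the labels or tables used here.

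**Figure D3:**
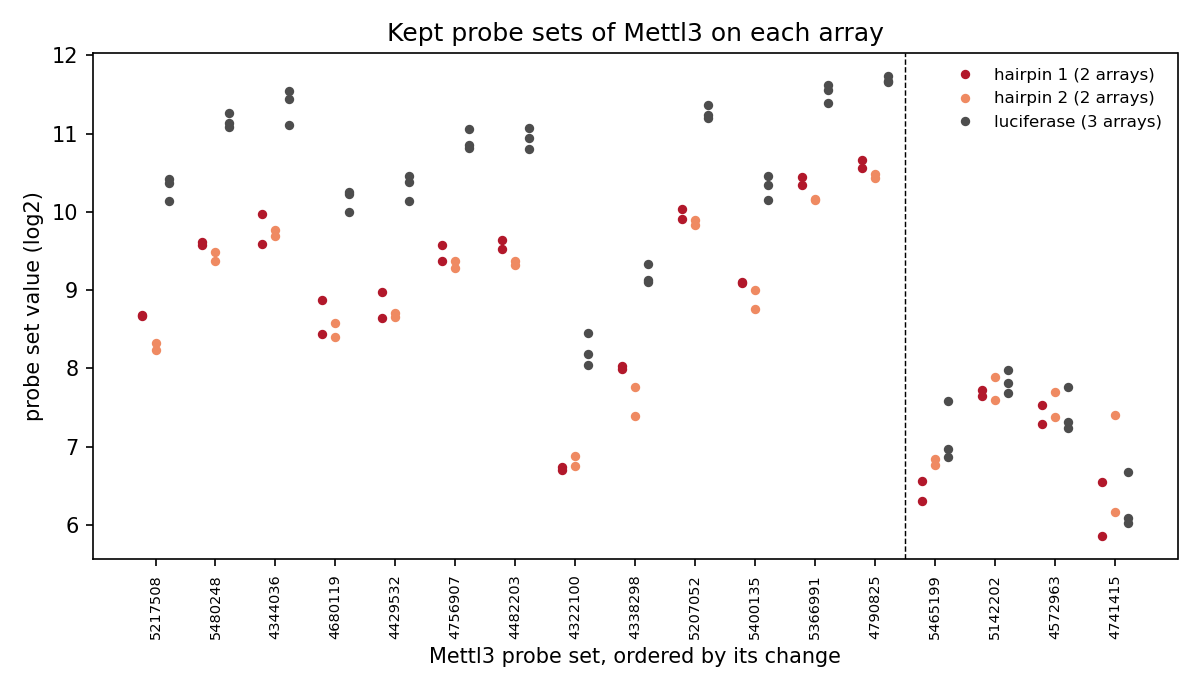
Values (log2, vertical axis) of the 17 kept probe sets of Mettl3 on each array, ordered by their change from left to right, with hairpin 1, hairpin 2 and luciferase side by side. Left of the dashed line stand the 13 probe sets called lower, and right of it the 4 that were not called, which change by -0.52 to 0.23.

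The exon usage test, which sets each probe set against the rest of its gene, called Mettl3 (diffSplice F test, adjusted p = 2.69e-15) and none of the other 7 genes, for which adjusted p-values ranged from 0.341 to 1 and none had an unadjusted p below 0.05. It called 4.97% of all tested genes. The test pools the spread over the probe sets of a gene as if they were independent, so its p-values can be too small for 7 arrays. Within Mettl3, 5 probe sets passed, where 0.685% of all probe sets did. They were the 4 that had not been called lower, which stood 0.67 to 1.47 above the rest of the gene, and 5217508, which stood at -0.72. With hairpin 2 alone the same 5 passed, where 0.287% of all probe sets did. With hairpin 1 alone 3 of them passed, and 5217508 and 5465199 did not (diffSplice adjusted p = 0.228 and 0.471). With hairpin 1 alone, 1 probe set also passed outside Mettl3, where 0.744% of all probe sets were called. That probe set was 5407602 of Zc3h13, at -0.70 relative to its gene (adjusted p = 0.0414). It was at 7.42 and 6.64 with hairpin 1 and 7.65 and 7.53 with hairpin 2, against 7.66, 7.74 and 7.63 with luciferase. The low value was that of hairpin 1 replicate 2, and hairpin 1 replicate 1 was also below the 3 luciferase arrays.

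Of the 127 kept probe sets of the other 7 genes, 1 was called (0.787%), where 2.29% of all kept probe sets were called. It was 5552904 of Rbm15, at 10.44 and 10.66 with hairpin 1 and 10.24 and 10.36 with hairpin 2, against 9.95, 9.83 and 9.80 with luciferase. All 4 hairpin arrays were above the luciferase arrays, and the change was 0.56 ± 0.098 (SE, limma adjusted p = 0.0375). The call was lost when any 1 of the 7 arrays was left out. Next in order of p came 4762962 of Mettl16, at 8.95 and 8.72 with hairpin 1 and 9.00 and 8.98 with hairpin 2, against 8.38, 8.53 and 8.09 with luciferase. Its groups did not overlap either, and its change was 0.58 (adjusted p = 0.0668).

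Small positive differences were common among these 127 probe sets. For both hairpins 99 were above 0, where 54.1% of all kept probe sets were above 0, and their median was 0.14 against 0.02 over all. Probe sets of a gene share transcripts and arrays and are not replicates. In Virma 28 of 31 probe sets were above 0 (median 0.17), and all 31 were with hairpin 2 alone. Cbll1 had 12 of 13 above 0 (median 0.27), and with hairpin 2 alone all 13 were. In 6 of those 13 every hairpin array was above every luciferase array, as in 12.2% of all kept probe sets. Rbm15 had 9 of 10 above 0 (median 0.19), Mettl16 16 of 20 (median 0.13) and Zc3h13 22 of 30 (median 0.12). Mettl14 had 8 of 15 above 0 (median 0.01), and Rbm15b 4 of 8. Of the 127 probe sets, 99 lay within 0.25 of 0 and 3 went beyond 0.5, where 74.4% and 5.39% of all kept probe sets did.

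**Figure D4:**
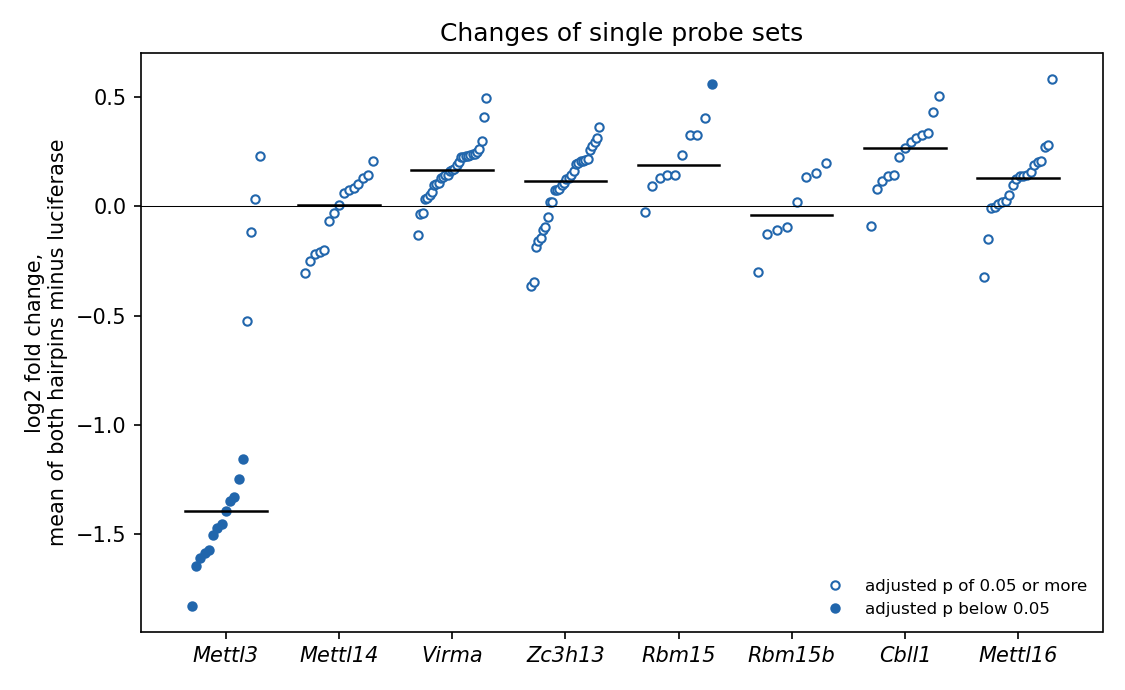
Log2 fold changes of single probe sets for the mean of both hairpins against luciferase (vertical axis), by writer gene. Filled points passed at an adjusted p below 0.05, open points did not, and black lines are medians. Of the filled points, 13 belong to Mettl3 and 1 to Rbm15, and the medians of the other 7 genes lie between -0.04 and 0.27.

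Wtap, the subunit left aside here, was at 0.32 ± 0.102 (SE, limma adjusted p = 0.0919), and 9 of its 31 kept probe sets were called higher and none lower, where 1.73% of all kept probe sets were called higher. Wtap passed in 5 of 18 alternatives, among them without hairpin 1 replicate 2 (0.42, adjusted p = 0.0208) and without both arrays that stood apart (0.44, adjusted p = 0.0410). Its probe sets moved apart in the exon usage test (adjusted p = 5.16e-22), as did those of Mettl3.

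Genes that work with the writers are given list by list, beside a background of 5.53% of all tested genes called higher. At an unadjusted limma p below 0.05 stood 24.2% of all tested genes. Of 14 tested m6A erasers and readers, 1 rose and none were called lower, with a median of 0.12. The 4 genes at an unadjusted p below 0.05 were 2 higher and 2 lower. Rbmx, which encodes the RNA-binding protein hnRNP G, rose by 0.33 ± 0.078 (SE, limma adjusted p = 0.0322). Rbmx was at 8.56 and 8.52 with hairpin 1 and 8.78 and 8.75 with hairpin 2, against 8.33, 8.41 and 8.24 with luciferase, so that its hairpin arrays were all higher. Rbmx was called with hairpin 2 (0.44, limma adjusted p = 0.0328) but not with hairpin 1 (0.21, adjusted p = 0.211). The call for both hairpins was lost in 12 of 18 alternatives, among them quantile normalization (adjusted p = 0.0587). It was also lost on leaving out any 1 of 6 arrays, luciferase replicate 2 being the exception. Of 21 other RNA methyltransferase genes none passed (median -0.01, 2 at an unadjusted p below 0.05), and the largest differences were Zcchc4, a ribosomal RNA methyltransferase gene (0.22, adjusted p = 0.107), and Trdmt1, a transfer RNA methyltransferase gene (-0.19, adjusted p = 0.148). Zcchc4 passed with the mean of the probe sets (adjusted p = 0.0351) and with median polish (adjusted p = 0.0459).

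Of 14 tested genes listed with the S-adenosylmethionine cycle, 2 rose and none were called lower (median 0.08). The cycle supplies the methyl groups and clears the spent donor. At an unadjusted p below 0.05 stood 7 of the 14, 6 of them higher and 1 lower. Adk, whose kinase removes the adenosine released from spent donor, was at 9.59 and 9.44 with hairpin 1 and 9.44 and 9.49 with hairpin 2, against 8.51, 8.64 and 8.75 with luciferase. Its hairpin arrays were clearly above its luciferase arrays, by 0.85 ± 0.087 (SE, limma adjusted p = 0.000693), and it passed with each hairpin (0.88 and 0.83). Adk kept its call for both hairpins in all 18 alternatives run, at 0.79 to 1.22, while its call with hairpin 2 was lost without hairpin 2 replicate 2 (0.80, adjusted p = 0.0634). Mthfd2, a mitochondrial folate enzyme gene that was on the list but is not part of the cycle itself, rose by 0.33 for both hairpins (adjusted p = 0.0293). It averaged 10.49 with hairpin 1 and 10.52 with hairpin 2, against 10.17 with luciferase, and was called with neither hairpin alone. Its call was lost in 11 of 18 alternatives, among them leaving out any 1 of 6 arrays, hairpin 1 replicate 2 being the exception, and centring each array on its median (adjusted p = 0.0614).

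Of 11 tested genes for proteins known to bind or recruit the writer complex, 1 rose and none fell (median -0.03). Smad3, which encodes an effector of activin and Nodal signals that can recruit the complex, was at 9.17 and 9.07 with hairpin 1 and 8.78 and 8.88 with hairpin 2, against 8.56, 8.56 and 8.50 with luciferase. All hairpin arrays were higher, those of hairpin 1 the most. The rise was 0.44 ± 0.076 for both hairpins (SE, limma adjusted p = 0.00825), 0.58 with hairpin 1 (adjusted p = 0.00675) and 0.29 with hairpin 2 (adjusted p = 0.118). The difference between hairpins did not pass (adjusted p = 0.421), and the hairpin 1 call was lost without hairpin 1 replicate 1 (0.54, adjusted p = 0.0593) and without both arrays that stood apart (0.61, adjusted p = 0.0555). The call for both hairpins was lost with the replicate block (0.42, adjusted p = 0.0617).

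Genes with a pattern over the 7 arrays most like that of each writer gene were found by the root mean square difference of mean-centred log2 values, where a smaller value means a closer match. For Mettl3 the closest were Morc1 (0.204), Septin1 (0.249) and D1Pas1 (0.289), where the median difference of all genes from Mettl3 was 0.798. The closest gene was Dnajc19 for Mettl14 (0.0358), Sumo2 for Virma (0.0290), Eya3 for Zc3h13 (0.0191) and Ltn1 for Rbm15 (0.0187). It was Imp3 for Rbm15b (0.0268), Nipa1 for Cbll1 (0.0691) and Rab18 for Mettl16 (0.0435). For these 7 genes the median over all genes ran from 0.154 (Rbm15) to 0.239 (Cbll1). Their own SD over the arrays was 0.0955 to 0.232, against 0.851 for Mettl3, so their smaller values cannot be set against those of Mettl3. These values describe 7 arrays in 3 groups and carry no test.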

How the data were processed

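Total RNA of 7 samples was hybridised to Affymetrix mouse exon arrays, 1 per sample. The authors deposited log2 expression for 1201338 probe sets per array, and the submitters' processing notes name RMA and R 2.11.1. No label or header states the probe set definition, genome build or detection calls. RMA brings arrays to 1 distribution, so a shift of most transcripts together would not be seen.

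Symbols came from the platform annotation (311384 probe sets with 1 symbol, 6385 with several, 883569 with none), updated for 45560 probe sets through RefSeq synonyms (GRCm38.p6). Probe sets with 1 symbol and a mean above 6.02, the median of all probe sets, were kept (229811), and genes needed 3 of them, with a median of 11. A gene value was their median per array. Limma 3.58.1 in R 4.3.3 (lmFit, eBayes) was fitted to all 7 arrays with 1 mean per group, for genes and for probe sets. Each such fit had 4 residual degrees of freedom. Exon usage (diffSplice) took the probe set fit and pooled the spread and degrees of freedom over the probe sets of a gene. Benjamini-Hochberg adjustment ran over all 16353 genes or all probe sets, and intervals are 95% intervals. The scripts were tested on simulated data.

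Members and gene lists were chosen with earlier results of these data known. Counts over a list cover its members among the tested genes, and a few listed genes are not reported here. Named were all 8 members, Wtap, up to 4 called members of each list (or the 2 largest differences where none passed), the closest genes by pattern, and probe sets that passed or lay far from their gene. Alternatives covered the filter, summary, scaling, spread model, arrays in the fit, a replicate block and leaving out each array. No promoter, hairpin or probe sequences were used.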

Additional observations from a re-analysis of the deposited data

How the results depend on the processing

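Mettl3 stayed called against luciferase in all 18 alternatives of each of the 3 comparisons (-1.66 to -1.15 for both hairpins, -1.65 to -1.11 for hairpin 1 and -1.73 to -1.19 for hairpin 2), while counts over all genes moved widely; the causes were not tested. Without a filter on dim probe sets, 484 genes were called for both hairpins, 320 for hairpin 1, 92 for hairpin 2 and 0 between hairpins (limma). The stricter filter called 1503 for hairpin 1, 1073 for hairpin 2 and 34 between hairpins. Using the mean of probe sets called 2840, 2259, 1626 and 79 in the same order of the 4 comparisons, and median polish 2469, 2072, 1439 and 76. Between hairpins, trended and robust eBayes called 29 and a fit of the compared arrays alone 2. Writer genes called numbered 2 with the stricter filter and with the mean of probe sets, for both hairpins and for hairpin 2, with Cbll1 added to Mettl3. With median polish they numbered 3 for both hairpins (Cbll1 and Rbm15 added) and 2 for each hairpin alone. Probe sets called were 827 without the filter and 9172 with the stricter one; those of the other 7 genes were 0 and 4, and Mettl3 probe sets called for exon usage were 3 and 2.

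Deviations of same-numbered arrays from their group means correlated at -0.18 between hairpin 1 and hairpin 2. Luciferase replicate 1 was at 0.013 with hairpin 1 and -0.015 with hairpin 2, and luciferase replicate 2 at -0.26 and 0.083. With 2 arrays per hairpin the 2 deviations mirror each other, so this check cannot tell whether the numbers pair samples. With the replicate block, 540, 460, 208 and 3 genes were called, 0 probe sets, 0 of Mettl3 and 0 of the other 7 genes, and 261 genes for exon usage. A crossed replicate block, added after the data were seen, called 956, 858, 423 and 3 genes. Leaving out hairpin 1 replicate 2 and luciferase replicate 3 together, also added then, called 705, 266, 317 and 0.

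Leaving out 1 array gave 605 to 1098 genes for both hairpins, 271 to 729 for hairpin 1, 63 to 577 for hairpin 2 and 0 to 4 between hairpins. For both hairpins the count was 846 or less without hairpin 1 replicate 1 (804), either hairpin 2 array (846 and 605), luciferase replicate 1 (638) or luciferase replicate 3 (817). For hairpin 1 it was 271 and 450 without its replicate 1 or 2 and 460 without luciferase replicate 1, and for hairpin 2 it was 121 and 63 without its replicate 1 or 2, 246 without luciferase replicate 1 and 343 without luciferase replicate 3. Writer genes called stayed at 1 against luciferase and 0 between hairpins. Probe sets called ranged from 203 to 1638, those of Mettl3 from 9 to 13 and those of the other 7 genes from 0 to 0. For exon usage, 281 to 944 genes were called, 3 to 5 Mettl3 probe sets, and 0 to 1 of the other genes.

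Signs turned in writer genes that were not called. Values for both hairpins were: Mettl14 0.0368 with the stricter filter and 0.0047 with median polish, Rbm15 -0.0041 with quantile normalization, -0.0203 with the replicate block, plain or crossed, and -0.0138 without the 2 arrays, and Rbm15b -0.0151 with the mean. For hairpin 1 they were: Mettl14 0.0338 with the stricter filter and 0.0047 with median polish, Zc3h13 -0.00204 with the stricter filter, -0.00654 with quantile normalization and -0.0162 with either block, Cbll1 -0.0125 with quantile normalization and -0.0214 after centring, and Virma -0.00993 after centring. For hairpin 2 they were: Mettl14 -0.0334, -0.0182 and -0.0388 (quantile, centring, and either block or without the 2 arrays), Rbm15 -0.0534, -0.0353 and -0.0512 in the same settings, and Rbm15b -0.0464, -0.0449, -0.0200 and -0.00424 (mean, median polish, quantile, centring). Between hairpins, Mettl16 was at -0.116, -0.0838 and -0.0856 (stricter filter, mean, median polish), Mettl14 at 0 with median polish, and Cbll1 at 0.0588 without the 2 arrays. Zfp42 was at -0.0248 and -0.0147 (mean, median polish) and Trdmt1 at 0.0793 (stricter filter). Leaving out 1 array spread values over both signs for Mettl14 (-0.189 to 0.0047) and Rbm15 (-0.0203 to 0.128) with both hairpins, Cbll1 (-0.264 to 0.323) and Zc3h13 (-0.0722 to 0.194) with hairpin 1, and Mettl14 (-0.0388 to 0.139) and Rbm15 (-0.0512 to 0.0974) with hairpin 2. Between hairpins it did so for Mettl3 (-0.0137 to 0.286) and Cbll1 (-0.529 to 0.0588).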
